A study of Ictalurus punctatus with 54 samples.

Results

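Of the 37586 Ensembl transcripts listed for each fish, 2 met a rule for higher mean levels in channel catfish gill soon after a Flavobacterium covae challenge that directly followed copper, and not after a challenge 24 h later. They are ENSIPUT00000034441 and ENSIPUT00000029070. Members were chosen by a rule on group means. CPM, the counts scaled to a common library size adjusted by the trimmed mean of M-values (TMM), was averaged over the 6 fish of a group and 1 CPM was added. Fish challenged immediately after copper had to reach 11 and at least 3 times the control at both 1 h and 4 h. Fish challenged 24 h after copper had to stay below 1.5 times the control at 1, 4 and 24 h. The rule was applied to the 13672 transcripts with a count of 10 or more in at least 6 libraries, and the upper limit of 200 members was not reached. The members are thus a pair of low-level transcripts and not a module of genes, and the level of the first was as high at 24 h after immediate challenge as early on.

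Gill RNA was sequenced from 54 channel catfish (Ictalurus punctatus) fingerlings with a mean weight of 7.3 g, 6 in each of 9 groups. Controls were untreated and sampled at 0 h. Cu0h fish were exposed to copper sulfate and sampled at once, and Cu24h fish were sampled 24 h later, neither of them challenged. Cu0h-1h, Cu0h-4h and Cu0h-24h fish were challenged immediately after copper and sampled 1, 4 and 24 h later, and Cu24h-1h, Cu24h-4h and Cu24h-24h fish were challenged 24 h after copper and sampled at the same times. The sample records give the copper dose as 2.1 mg/mL, name the bacterium F. columnare and describe the wait before the later challenge as copper exposure. The paper gives the dose per litre and names F. covae, and it describes the wait in some places as static holding after copper and in others as recovery in running fresh water. Fish challenged after the wait are called recovered fish here for short. Every group except the controls received copper, and the records do not say which fish shared a tank. The paper describes replicate tanks for each treatment group. P-values rest on the spread between fish, and where fish share a tank that spread leaves out differences between tanks. P-values may then be too small. Fish challenged without copper were not analysed here, and no unchallenged fish stand beside the 1 h and 4 h samples.

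The gill is a thin epithelium in direct contact with the water, where fish exchange gases and ions. Copper ions enter the fish mainly there, and gill cells answer excess copper with metal-binding and antioxidant proteins. Flavobacteria of the columnaris group attach to the same surface and erode it, and the host answers with cytokines, chemokines and recruited leukocytes. Whether the members belong to any of these programmes is not given by the data. The files pair no transcript with a gene name, 0 of the transcript IDs were found in the RefSeq gene table, and no function, position or sequence is therefore stated for either of them. For the same reason the gill label was not checked against marker genes.

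Library totals ran from 352013 to 1190864 estimated counts (TMM factors 0.61 to 1.30, with the controls at 0.76 to 0.85). When every library was thinned to 352013 counts, 11357 to 18841 transcripts were detected per fish. Cu0h replicates 5 and 6 stood apart at 17943 and 17866, against 12494 to 13936 in the other Cu0h fish, and Cu24h replicates 1 and 3 at 11357 and 12931, against 17300 or more in the other Cu24h fish. Cu0h-4h replicate 4 and Cu0h-24h replicate 6 were low at 13368 and 13653. The controls, the base of every ratio of the rule, ran from 14547 to 15394. Every Cu0h-1h fish lay above them, at 16355 to 17331, while Cu0h-4h ran from 13368 to 17225. Fish challenged 24 h after copper ran from 14871 to 17317. The part of these differences in the ratios was not tested.

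The rule removed nearly all transcripts at its second step. The early rise at both 1 h and 4 h after immediate challenge was met by 635 of the 13672 transcripts, 4.64%. Of these, 170 stayed below 1.5 times the control at Cu24h-1h, 75 at Cu24h-4h and 8 at Cu24h-24h. None of the 3 recovered groups was below that level for 419 of them, 1 group was for 181, 2 groups were for 33 and all 3 for the 2 members. The transcripts that rose early after immediate challenge were thus mostly also above the control in the recovered fish, 627 of them at 24 h. Their highest recovered ratio had a median of 4.60 and quartiles of 3.46 and 6.52. Over all 13672 transcripts, 53.6% stayed below 1.5 times the control in all 3 recovered groups, against 0.315% of those with the early rise. All of these counts come from the values that the rule used and are a description without a test. Early and recovered ratios are divided by the same control means, and a low control mean raises both. The contrast of 53.6% with 0.315% is therefore partly built in, and the size of that part was not tested. The early rise was measured from untreated fish, so copper and challenge are mixed in it. In unchallenged Cu0h fish the median ratio to the control over the 635 was already 2.39. With Cu0h as its base, the paper called not a single gene changed in Cu0h-1h and few in Cu0h-4h. Those are calls of genes from another alignment, at an FDR below 0.05 and a log2 fold change above 1 in size. They are not comparable with the untested ratios given here. The Cu0h fish were also split in transcripts detected. Without Cu0h replicates 5 and 6, Cu0h-24h against Cu0h gave 2680 DEGs here instead of 875. The part of the challenge in the early rise was not tested.

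**Figure D1:**
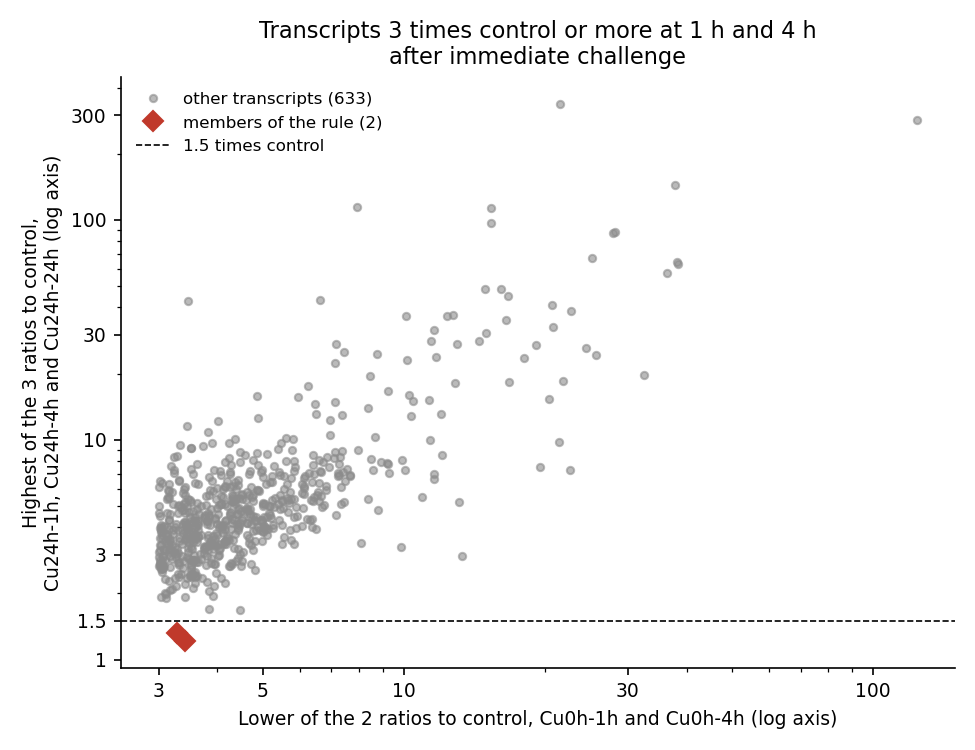
Each point is 1 of the 635 transcripts at 3 times the control or more at both 1 h and 4 h after immediate challenge. The x axis gives the lower of these ratios, the y axis the highest ratio to the control among the 3 recovered groups (group mean plus 1 CPM, both axes logarithmic). The 2 members lie under the dashed line at 1.5 and near the left edge, at 3.28 and 3.42, and the nearest other transcript is at 1.69 on the y axis.

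Both members lay close to the thresholds. ENSIPUT00000034441 was at 3.47 times the control at Cu0h-1h and 3.28 times at Cu0h-4h, with a highest recovered ratio of 1.32. ENSIPUT00000029070 was at 3.42 and 3.74 times, with a highest recovered ratio of 1.22. Just outside the rule were transcripts with highest recovered ratios of 1.69 and 1.71, whose lower early ratios were 4.46 and 3.84. By the size of the lower early ratio the members ranked 544 and 504 among the 635, and by mean CPM over all fish they ranked 557 and 498. Their mean levels over the 54 fish were 8.90 and 11.2 CPM, where the median of the 635 was 19.7. By these measures they were weaker and lower than most transcripts that rose early. Both measures draw on groups that the rule used, and the rule held the members low in the recovered fish. The ranks are therefore a description without a test. In the controls alone the members were at 5.49 and 7.65 (group mean plus 1 CPM), where the median of the 635 was 5.70.

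ENSIPUT00000034441 was near the limit of detection in most groups. A count of 0 was found in 20 of the 54 fish and a count of 10 or more in 14. In the controls it had 15 counts in all, with a lowest level of 0, a median of 0.90 and a highest of 17.1 CPM, and 3 fish at 0. In Cu0h-1h the lowest fish was at 0, the median was 11.9 and the highest fish, replicate 4, was at 56.9 CPM. Replicate 4 held 77 of the 130 counts of that group, and 3 of the 6 fish were above the highest control. In Cu0h-4h the levels ran from 3.29 to 28.6 CPM with a median of 16.2, no fish was at 0, and again 3 of 6 fish were above the highest control. The means were 4.49 ± 6.91 CPM in the controls, 18.1 ± 21.5 in Cu0h-1h and 17.0 ± 10.3 in Cu0h-4h (SD, n = 6 each). The pooled levels were 4.74 CPM (95% exact binomial interval 2.65 to 7.82), 21.9 (18.3 to 26.0) and 17.9 (14.7 to 21.6), where the intervals cover counting error only and leave out the larger spread between fish. A change in the number of cells that carry a transcript and a change of RNA per cell cannot be told apart in whole gill.

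In the recovered fish the group means of ENSIPUT00000034441 were 0.402, 1.32 and 0.866 times the control at 1, 4 and 24 h (group mean plus 1 CPM), so that the 4 h group was above the control level but below the limit of the rule. In Cu24h-1h 4 fish were at 0, the median was 0 and the highest fish was at 4.13 CPM. In Cu24h-4h 3 fish were at 0, the median was 3.35 and the highest fish was at 19.1 CPM, above every control. In Cu24h-24h 3 fish were at 0, the median was 0.62 and the highest fish was at 14.1 CPM. The mean at Cu24h-4h, 6.27 ± 7.92 CPM (SD, n = 6), was the closest of the 3 to the upper limit of the rule.

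ENSIPUT00000029070 was at 0 in 12 of the 54 fish and had a count of 10 or more in 15. The 6 controls fell apart, with 3 at 0, replicate 3 at 5.50 and replicates 1 and 4 at 17.3 and 17.1 CPM. In Cu0h-1h the lowest fish was at 5.17, the median was 16.9 and the highest, replicate 2, was at 57.7 CPM. Only replicates 2 and 5, at 57.7 and 47.2 CPM, were above the highest control. In Cu0h-4h 2 fish were at 0, the median was 15.2 and replicate 4 was at 100.6 CPM, with the next fish at 34.7. That fish was among those with few transcripts detected at equal depth, and the part of this in its level was not tested. The group means were 6.65 ± 8.44 CPM in the controls, 25.2 ± 22 in Cu0h-1h and 27.6 ± 39.0 in Cu0h-4h (SD, n = 6 each). Without Cu0h-4h replicate 4, the ratio to the control at 4 h was 1.84 instead of 3.74, under the threshold of the rule.

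After recovery ENSIPUT00000029070 remained within the range of the controls in all but 1 fish. In Cu24h-1h the median was 1.95 CPM and the highest fish, replicate 4, was at 18.6, above the highest control by about 1 CPM. In Cu24h-4h the levels ran from 0 to 13.8 CPM with a median of 4.11, and in Cu24h-24h from 2.85 to 12.5 with a median of 8.61. No Cu24h-24h fish was at 0, while 3 of the 6 controls were.

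**Figure D2:**
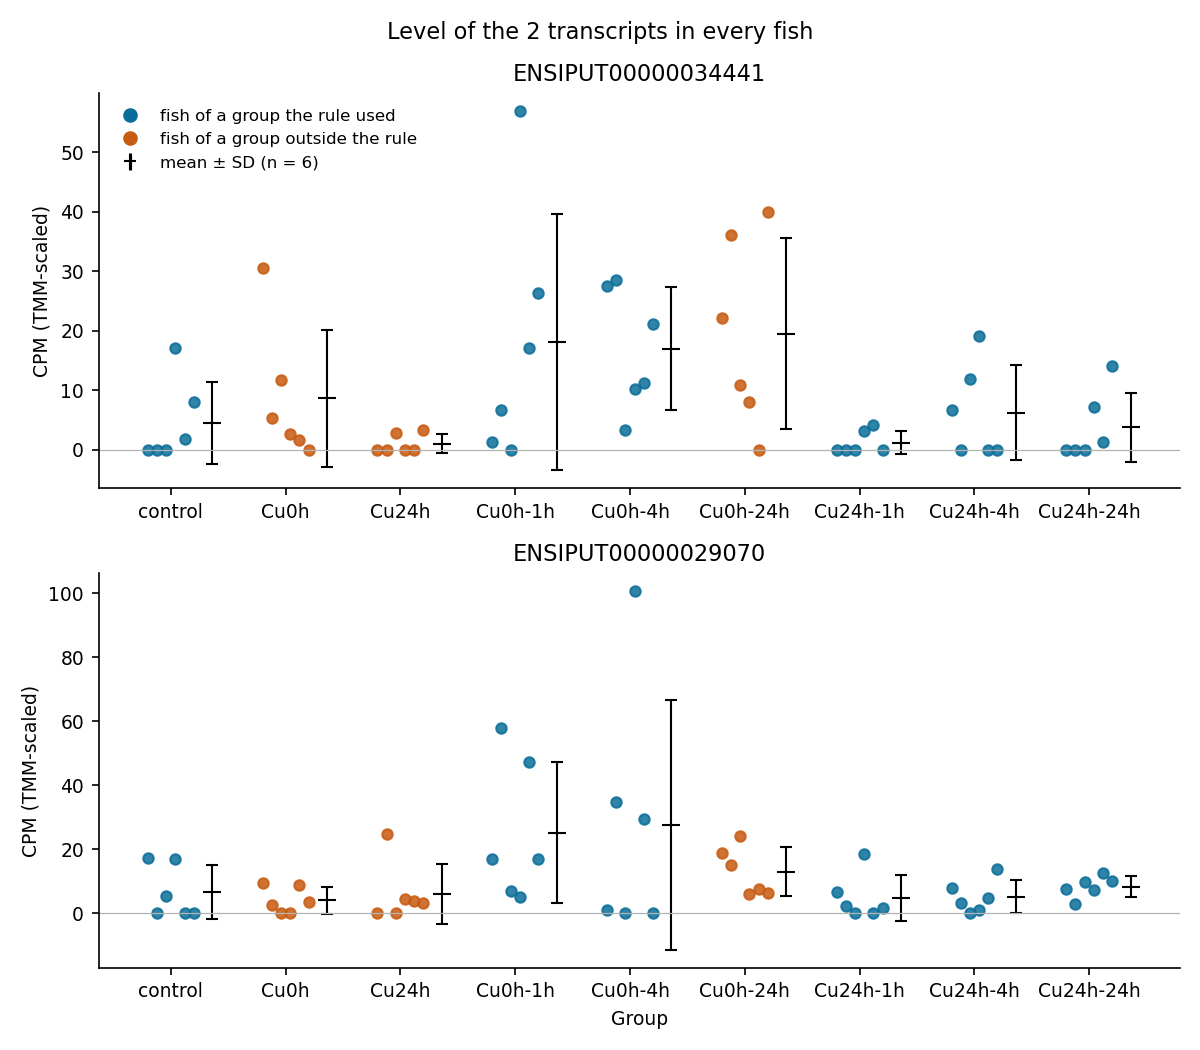
The y axis gives TMM-scaled CPM and each point is 1 fish, in order of replicate number from left to right within a group. Bars show mean and SD (n = 6), blue marks the 6 groups used by the rule and orange the 3 outside it. Fish of Cu0h-1h and Cu0h-4h overlap the controls in both transcripts, and the highest mean of ENSIPUT00000029070 includes Cu0h-4h replicate 4 at 100.6 CPM.

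For neither member did every challenged fish lie above every control, at 1 h or at 4 h. That separation was found for 6.05% of the 13672 transcripts at 1 h and for 5.57% at 4 h, and since these contrasts chose the members nothing is read from it. The spread between fish was wide. The SD divided by the mean was 1.19 for ENSIPUT00000034441 and 0.873 for ENSIPUT00000029070 in Cu0h-1h, and 0.606 and 1.41 in Cu0h-4h. The median over the 635 transcripts with the early rise was 0.442 in Cu0h-1h and 0.466 in Cu0h-4h. Counting error raises this measure at low counts, and the 635 were not matched to the members in level. The rule also used both groups, so nothing is read from this contrast. In order of mean level, ENSIPUT00000034441 ran from Cu0h-24h through Cu0h-1h, Cu0h-4h, Cu0h, Cu24h-4h, control, Cu24h-24h and Cu24h-1h to Cu24h. ENSIPUT00000029070 ran from Cu0h-4h through Cu0h-1h, Cu0h-24h, Cu24h-24h, control, Cu24h, Cu24h-4h and Cu24h-1h to Cu0h. In neither order did any of the 8 pairs of neighbours differ by more than the larger SD of the pair, and all of these pairs overlapped in range. Neighbours in a sorted order are close by construction, so nothing is read from this about groups further apart.

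Membership rested on single fish. When each of the 36 fish of the 6 groups used by the rule was left out in turn, both members were kept in 21 runs, ENSIPUT00000034441 in 24 and ENSIPUT00000029070 in 28. The rule then found 0 to 4 transcripts. ENSIPUT00000034441 was lost with each of the 6 controls, with Cu0h-1h replicate 4, with Cu0h-4h replicates 1 and 2 and with Cu24h-4h replicates 2, 5 and 6. ENSIPUT00000029070 was lost with every control except replicate 3, with Cu0h-1h replicates 2 and 5 and with Cu0h-4h replicate 4. The control fish acted in both directions, shown here in the scaling of all 54 libraries. Without control replicate 1, which was at 0, the ratio at 4 h of ENSIPUT00000034441 was 2.82, under the threshold of 3. Without control replicate 4, its highest control, the early ratios were above 6 and the highest recovered ratio was 2.44, over the limit of 1.5. ENSIPUT00000029070 passed 1.5 in the recovered fish in the same way, at 1.69 and 1.67 without control replicates 1 and 4. Its ratio at 1 h fell from 3.42 to 2.57 without Cu0h-1h replicate 2. The ratio at 1 h of ENSIPUT00000034441 fell from 3.47 to 2.06 without Cu0h-1h replicate 4.

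**Figure D3:**
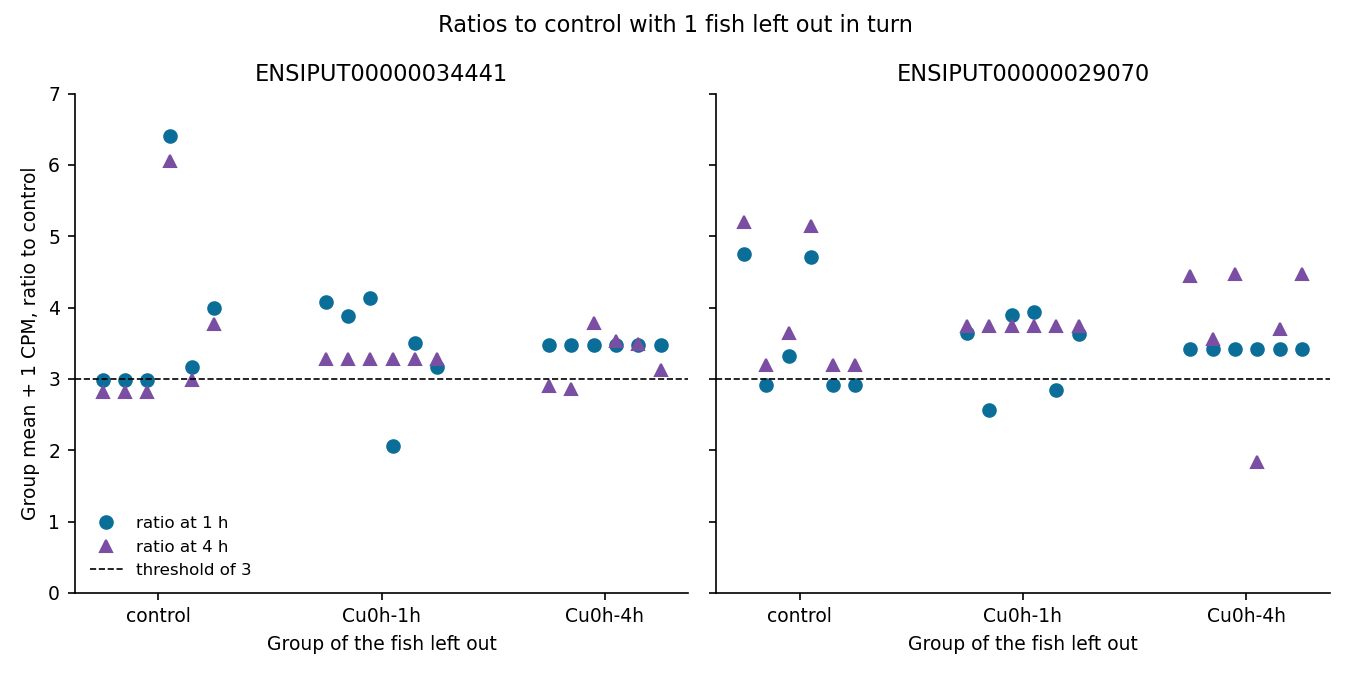
The y axis gives the ratio of group mean plus 1 CPM to the control at 1 h (circles) and 4 h (triangles), in the scaling of all 54 libraries, and the x axis the group from which 1 fish was left out, with 1 pair of symbols per fish. The dashed line is the threshold of 3. Ratios fall below it without any of several fish for either member, control replicate 2 among them. The lowest are those of ENSIPUT00000029070 without Cu0h-4h replicate 4 (1.84 at 4 h) and of ENSIPUT00000034441 without Cu0h-1h replicate 4 (2.06 at 1 h).

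Scaling also decided which transcripts met the rule. TMM lowered the median log2 ratio over all 13672 transcripts from 0.74 to 0.24 at Cu0h-1h and from 0.59 to 0.13 at Cu0h-4h, compared with scaling by library totals alone. Under library totals 3 transcripts met the rule, none of them a member. ENSIPUT00000034441 then reached 1.52 times the control at Cu24h-4h and ENSIPUT00000029070 1.59 times at Cu24h-24h, just over the limit, while their early ratios were 4.36 to 4.92. With group medians in place of means 5 transcripts met the rule, again none of them a member. With DESeq2's size factors there were 4, both members included.

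The 3 groups that the rule did not use, Cu0h, Cu24h and Cu0h-24h, were compared because the ratios of the rule did not include them. They share copper schedules with groups in which the rule required the members to be high or low. Their comparisons are therefore not an independent test of the members. The comparisons ask whether the members differed right after copper and 24 h later in unchallenged fish, and between fish challenged at once and unchallenged fish. With edgeR's filterByExpr on the 12 libraries of a comparison neither member was kept, so 0 of 2 were tested, where 0.201% of the transcripts tested were DEGs in Cu24h against Cu0h, 11.6% in Cu0h-24h against Cu0h and 21.7% in Cu0h-24h against Cu24h. The fold changes below come from edgeR's quasi-likelihood test with the filter of the rule, a count of 10 or more in at least 6 of all 54 libraries. Counts of 10 or more for ENSIPUT00000034441 were found in 11 libraries of fish challenged immediately and 3 others, and for ENSIPUT00000029070 in 10 and 5, so the filter was passed only with fish in which the members were high. Outside the 3 compared groups 9 and 10 libraries reached that count. A DEG had an FDR (Benjamini-Hochberg over all transcripts tested) below 0.05 and a log2 fold change above 1 in size.

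Against unchallenged Cu24h fish, ENSIPUT00000034441 was higher 24 h after immediate challenge. In Cu24h 4 fish were at 0 and the highest, replicate 6, was at 3.38 CPM, for a mean of 1.05 ± 1.63 (SD, n = 6). In Cu0h-24h replicate 5 was at 0, the median was 16.5 and the highest fish, replicate 6, was at 40.0 CPM, for a mean of 19.5 ± 16.1 (SD, n = 6). Every Cu0h-24h fish except replicate 5 was above every Cu24h fish. In edgeR the log2 fold change was 3.99 with a standard error of 0.94 and an FDR of 0.00448. The pooled level was 16.7 times that of Cu24h, and counting error alone allowed 7.45 to 46.6 times (95% exact binomial interval). An exact two-sided permutation test of the difference in mean CPM over the 924 splits of the 12 fish gave p = 0.0152, unadjusted for the 6 such tests that were run. The choice of members and the filter drew on fish of the same copper schedules. These values therefore describe the difference and are not an independent test of it. In this comparison 18.8% of the 13672 transcripts were DEGs and 9.83% of the 13672 were DEGs higher in Cu0h-24h. A call for 1 of 2 members is read beside that background, and a single call does not set the members apart from it.

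The call for ENSIPUT00000034441 was kept with each of the 12 fish left out in turn, with log2 fold changes of 3.66 to 5.62 and FDRs of 0.00142 to 0.0146 from edgeR. Cu24h replicates 1 and 3, with the fewest transcripts detected, were at 0 and 2.90 CPM, and without both the log2 fold change was 4.01 (FDR 0.0107 from edgeR). Cu0h-24h replicate 6 had few transcripts detected and the highest level of its group, and without it the log2 fold change was 3.71 (FDR 0.00997 from edgeR). With all 12 fish and no low-count filter it was 4.04 (FDR 9.09e-05 from edgeR), while with filterByExpr the transcript was not tested. All of these fits repeat a comparison that is not independent of how the members were chosen. They show only how far the call rested on single fish or on the filter. Its highest group mean was that of Cu0h-24h, at 3.74 times the control. The 24 h of Cu24h fish count from copper and those of Cu0h-24h fish from the challenge. Since the tank of each fish is not recorded, the part of tanks in this difference was not tested. Nor was the part of the handling of the fish during that time.

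ENSIPUT00000029070 did not pass the test in the same comparison. Its levels in Cu0h-24h ran from 6.05 to 24.2 CPM with a median of 11.4, for a mean of 13.0 ± 7.56, against 6.08 ± 9.32 in Cu24h (SD, n = 6 each). Cu24h replicate 2 was at 24.7 CPM and the other Cu24h fish at 4.45 or below. The log2 fold change from edgeR was 0.90 ± 0.63 (standard error) at an FDR of 0.34, and the exact two-sided permutation test gave p = 0.177. Without Cu24h replicate 2 the log2 fold change was 2.01 and passed the threshold (FDR 0.0362 from edgeR), so the outcome was set by that fish.

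Against Cu0h, the fish sampled immediately after copper, neither member was a DEG at 24 h after immediate challenge. The background was 7.34% DEGs among 13672 transcripts. ENSIPUT00000034441 was at 8.68 ± 11.5 CPM in Cu0h (SD, n = 6), from 0 to 30.6 with a median of 4.06. The highest Cu0h fish was replicate 1, and no other was above the highest control. The transcript's log2 fold change in Cu0h-24h was 1.48 ± 0.83 (standard error) at an FDR of 0.268 in edgeR, and the exact two-sided permutation p was 0.203. ENSIPUT00000029070 was at 4.11 ± 4.2 CPM in Cu0h (SD, n = 6), from 0 to 9.41 with a median of 3.12, and no Cu0h fish was above the highest control. In edgeR its log2 fold change was 1.38 ± 0.61 (standard error), with an unadjusted p of 0.033 and an FDR of 0.155. The exact two-sided permutation p was 0.0303, again unadjusted. An unadjusted p under 0.05 in edgeR was found for 1 of 2 members and for 25.5% of all transcripts tested. DESeq2's Wald test called 0 of 2 members and 1232 of 11438 transcripts, so nothing about the members is read from it. Without Cu0h replicates 5 and 6, which stood apart in transcripts detected, the log2 fold changes were 0.48 and 1.98 (FDR 0.707 and 0.134 from edgeR).

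**Figure D4:**
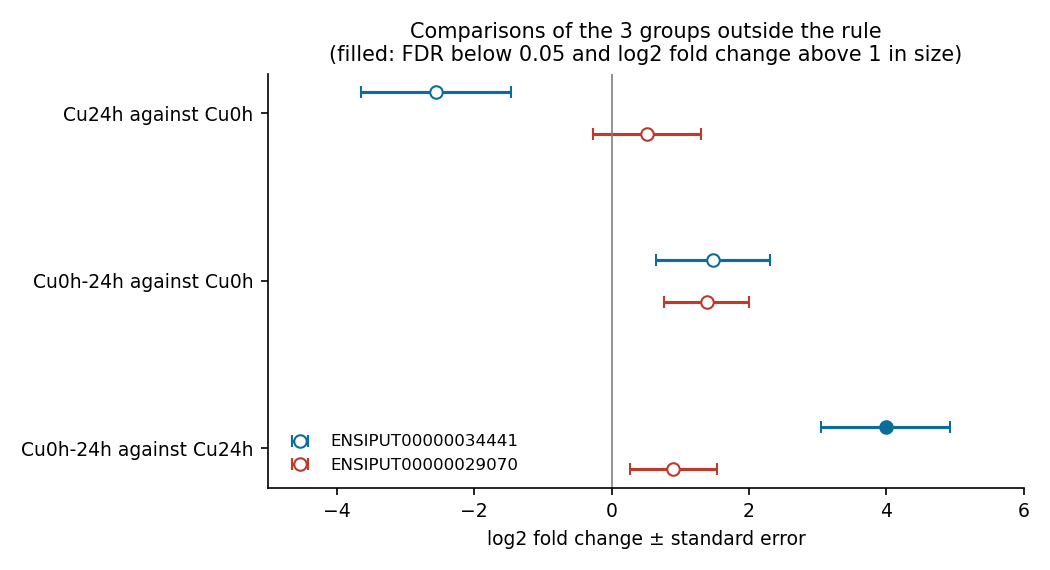
Points are log2 fold changes with their approximate standard error for the 3 comparisons among groups that the rule did not use, from edgeR on 12 fish each. The filled point is the only value past the thresholds, ENSIPUT00000034441 in Cu0h-24h against Cu24h at 3.99, and the other 5 values did not pass.

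Between unchallenged fish 24 h after copper and immediately after it, neither member was a DEG, in a comparison where 0.0439% of 13669 transcripts were. ENSIPUT00000034441 had a log2 fold change of -2.56 ± 1.09 (standard error) in Cu24h, with an unadjusted p of 0.0249 and an FDR of 0.378 in edgeR. Cu0h replicate 1, at 30.6 CPM, weighed on it, and without that fish the value was -1.37. The exact two-sided permutation test gave p = 0.0758. ENSIPUT00000029070 had a log2 fold change of 0.51 ± 0.79 (standard error) at an FDR of 0.876 in edgeR, and p was 0.786 in the exact permutation test. Without Cu24h replicate 2 its sign turned, to -0.61. Under an unadjusted p of 0.05 edgeR had 1 of the 2 members and 10.8% of all transcripts tested, and DESeq2's Wald test gave no adjusted p for either.

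Levels right after copper, in Cu0h, were 1.76 times the control for ENSIPUT00000034441 and 0.668 times for ENSIPUT00000029070 on the scale of group mean plus 1 CPM. The median over the 635 transcripts with the early rise was 2.39. These ratios share the controls that the rule used and carry no test. At 24 h after immediate challenge the ratios were 3.74 and 1.84, where the median of the 635 was 4.95.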

How the data were processed

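The authors deposited an estimated count of reads for every Ensembl transcript (an effective count) in 1 file per fish, without normalization. The submitters' processing notes name Trim Galore 0.5.0, Bowtie2 2.3.4.3, eXpress 1.5.1 and DESeq2 1.24.0, while the paper describes STAR, HTSeq and edgeR on an NCBI genome assembly. How reads were divided between similar transcripts affects every value and was not checked. Files were joined by transcript ID. All computations used R 4.3.3 with edgeR 4.0.16 (TMM, quasi-likelihood F-test, Benjamini-Hochberg adjustment) and DESeq2 1.42.0 as an alternative. The planned filterByExpr filter (minimum count 10, minimum total count 15) removed both members, so their fold changes come from the fit with the filter of the rule over all 54 libraries. Standard errors are the fold change divided by the square root of F and are approximate. The members and comparisons were chosen with earlier results of these data known. The rule for transcripts to be named covered both members, which are also the only ones it could name. DESeq2's size factors and Wald test, other filters, a fit of all 9 groups together, a block for replicate number, edgeR's older quasi-likelihood method and leaving out fish in turn were tried as alternatives. The permutation tests, the mirrored rule and the fits without pairs of fish were added after the data were seen. Each of the 135 pairs of libraries within groups differed by far more than sampling noise (chi-square per transcript at least 5.29). The rule and the test with filterByExpr were tried on simulated data. The transcripts changed there had higher mean counts than the members, so the fits for the members are not covered.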

Additional observations from a re-analysis of the deposited data

Results flagged for a closer look

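A fish far from the rest of its group was found in 3 of the 18 sets of 6 fish (9 groups and 2 transcripts), by the gap to its nearest neighbour divided by the range of the group (Dixon's ratio at its 95% critical value). Chance flags about 1 in 20 such sets where values are normally distributed. Levels from counts this low are skewed, so chance may flag more, and nothing is read from the number flagged. All 3 concern ENSIPUT00000029070. Cu24h replicate 2 was at 24.7 CPM with the next fish at 4.45, Cu0h-4h replicate 4 at 100.6 CPM with the next at 34.7, and Cu24h-1h replicate 4 at 18.6 CPM with the next at 6.61. These levels rest on 25, 59 and 6 counts. The numbers of transcripts detected at equal depth in the 3 fish were 17405, 13368 and 14871, and for Cu0h-4h replicate 4 and Cu24h-1h replicate 4 this was the lowest of the group. The last of them was also the smallest library of all, with 352013 counts.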

How the results depend on the processing

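The rule found 2 transcripts, and 4 with DESeq2's size factors, 5 with group medians and 0 to 4 with 1 fish left out. In Cu0h-24h against Cu24h neither member was tested with filterByExpr on all 12 libraries. In the settings that follow 1 of 2 members was called, beside the DEGs over all transcripts. These were 2994 of 30191 with no low-count filter, 2575 of 13672 with the filter over all 54 libraries and 3145 of 12680 with all 9 groups in 1 fit. DESeq2's Wald test gave 2501 of 19081, and filterByExpr without Cu24h replicates 1 and 3 gave 2442 of 10687. For ENSIPUT00000029070 in Cu0h-24h against Cu24h, leaving out 1 fish gave log2 fold changes of 0.62 to 2.01. For ENSIPUT00000034441 the alternatives other than leaving out 1 fish gave 3.94 to 4.27 with FDRs of 9.09e-05 to 0.0157. Over all transcripts, Cu24h against Cu0h gave 14 DEGs, and 59 with DESeq2's Wald test, 147 with no low-count filter, 6 with the filter over all 54 libraries, 439 with all 9 groups in 1 fit and 0 with the older quasi-likelihood method (533 at an unadjusted p under 0.05). Leaving out 1 fish gave 0 to 43. The paper's own count for Cu24h against Cu0h, of genes from another alignment, was higher than any of these. Cu0h-24h against Cu0h gave 875 DEGs, and 1341 with no low-count filter, 1758 with all 9 groups, 2680 without Cu0h replicates 5 and 6 and 437 to 1423 with 1 fish left out. Cu0h-24h against Cu24h gave 1885 DEGs, and 2994 with no low-count filter and 3145 with all 9 groups. The cause was not tested. With the replicate number as a block the 3 comparisons gave 31, 384 and 1238 DEGs. Same-numbered fish deviated together with correlations of -0.25 to 0.50, -0.28 to 0.09 and -0.26 to 0.09, and 2, 0 and 0 of 6 fish correlated best with their own number. A pairing by number was thus not evident, but such correlations cannot exclude that same-numbered fish share more than a number. The block changed no call for the members. Either transcript had 0 to 77 counts per fish, so counting error is large and small differences may not be detectable at the depth of the deposited counts. The paper's stated minimum of reads per sample is far above the deposited library totals. The cause of that gap was not tested.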

Other observations

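With the copper schedules exchanged, a description chosen after the data were seen, 104 transcripts reached 11 and 3 times the control at both Cu24h-1h and Cu24h-4h. Of these, 2 stayed below 1.5 times the control at all 3 times after immediate challenge, 1.92%, beside 0.315% for the rule as given. The number of transcripts that met the whole rule was thus 2 for either schedule. The early rise itself was met by 635 transcripts after immediate challenge and by 104 after recovery. The 635 became 831 with DESeq2's size factors and 1394 with library totals alone. Library totals were 665745 to 1128932 in Cu0h-1h and 352013 to 741727 in Cu24h-1h. All of these ratios share the control means, and copper and challenge are mixed in them. The part of depth, scaling and copper in the difference between schedules was not tested.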
